A study of Mus musculus with 12 samples.

Results

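The comparison described here sets injured kidneys with a tubular Gpx3 knockout against injured wild-type kidneys. It rests on 6 of the 12 libraries of the series, 3 labelled CKO IRI (7, 15 and 29) and 3 labelled WT IRI (13, 24 and 49). Genes were kept where at least 3 of these 6 libraries reached 1 FPKM (fragments per kilobase of transcript, scaled to the mapped fragments of the library), which left 12113 of the 13465 genes in the deposited table. RNA came from mouse renal cortex. The CKO mice lacked Gpx3 in renal tubular epithelial cells only, and the WT mice were wild type. Both groups had 30 min of ischemia of both kidneys followed by 48 h of reperfusion (ischemia-reperfusion injury, IRI). WT sham and CKO sham libraries, 3 each, are used only where a value without injury is needed. The Cre driver, the deleted part of Gpx3, the strain, the age and the sex are not given in the sources used here. The labels do not state whether the libraries came from different animals. The spread behind each p-value may therefore be technical.

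Gpx3 encodes the secreted glutathione peroxidase of plasma, a selenoprotein that reduces peroxides with glutathione, and the proximal tubule is its main source. Proximal tubule cells live largely on fatty acid oxidation in mitochondria and peroxisomes and are easily damaged by ischemia. After ischemia-reperfusion these cells lose transporter and metabolic transcripts, express injury genes such as Havcr1 (KIM-1) and Lcn2 (NGAL), release chemokines under NF-kB, and re-enter the cell cycle.

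Kidney markers were present in all 6 libraries. The phosphate transporter Slc34a1 of the proximal tubule measured 438 to 1139.7 FPKM, and Umod of the thick ascending limb 582 to 1441 FPKM. The cartilage gene Comp lay between 0.16 and 1.02 FPKM, although joint capsule is the tissue named in the extraction protocol of the labels. Summed FPKM differed little between the 6 libraries (393677 to 414660), while the share from the mitochondrial genome was 3.94% in WT IRI 13 and 7.36% to 10.21% in the others. The libraries did not group cleanly by genotype. Across genes, the log2 values of WT IRI 49 correlated at 0.951 to 0.959 with the CKO IRI libraries and at 0.916 and 0.935 with WT IRI 13 and WT IRI 24. WT IRI 24 correlated at 0.949 with CKO IRI 29 and at 0.942 with WT IRI 13. CKO IRI 29 correlated at 0.951 with WT IRI 49 and at 0.933 with CKO IRI 15. WT IRI 13 correlated at 0.887 to 0.918 with the CKO IRI libraries. On the first principal component, with 44.9% of the variance, WT IRI 13 and WT IRI 24 lay at 52.6 and 25.8, WT IRI 49 at -14.9, and the CKO IRI libraries between -37 and -1.57. The haemoglobin gene Hbb-bs was also highest in WT IRI 49, at 209 FPKM against 8.26 to 83.1 FPKM in the other 5.

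Gpx3 itself (chr11:54902453-54910377, plus strand, GRCm38) was not lower in the injured kidneys labelled knockout. It measured 2788, 3568 and 1075 FPKM in WT IRI 13, 24 and 49, and 3723, 3025 and 2779 FPKM in CKO IRI 7, 15 and 29. The groups overlapped, and the lowest value of the 6 was that of WT IRI 49. The difference was 0.52 ± 0.44 (SE) on the log2(FPKM + 1) scale, the scale of every log2 value here, with an adjusted p of 0.6231 in limma's moderated test. An exact two-sided permutation test of the FPKM values over the 20 divisions of the 6 libraries gave p = 0.5, where 3 libraries against 3 cannot go below 0.1. Without WT IRI 49 the difference was -0.0012. In the sham libraries Gpx3 measured 5664, 4476 and 5371 FPKM in WT and 2501, 3037 and 3299 FPKM in CKO, so the sham groups did not overlap. Nearly all of the signal came from 1 transcript, ENSMUST00000082430, which lay between 963 and 3394 FPKM in the WT IRI libraries and between 2766 and 3489 FPKM in the CKO IRI libraries. RNA made outside the deleted cells, or from a deleted allele that is still transcribed, cannot be told apart from intact tubular RNA in these values. WT IRI and CKO IRI therefore stand below for the libraries labelled so.

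**Figure D1:**
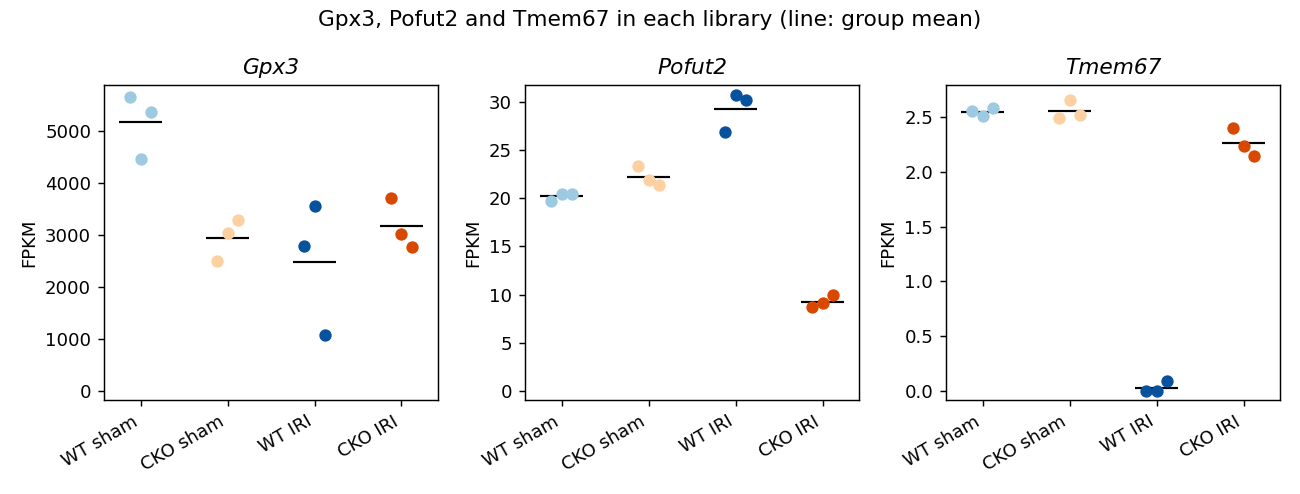
Gpx3, Pofut2 and Tmem67 in FPKM (linear axis) in each of the 12 libraries by group, 1 point per library, with the group mean as a line. Gpx3 overlaps between WT IRI and CKO IRI, while Pofut2 lies between 8.75 and 9.96 FPKM in CKO IRI against 26.9 to 30.7 FPKM in WT IRI, and Tmem67 is at or near 0 only in WT IRI.

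No gene passed an adjusted p of 0.05 in either direction (0 of 12113 genes, 0%, limma with Benjamini-Hochberg adjustment over all genes), while 491 genes were higher and 801 lower in CKO IRI at an unadjusted p under 0.05. The lowest adjusted p, 0.05894, was shared by 5 genes. Description below therefore uses genes whose libraries do not overlap, with all 3 CKO IRI values above or below all 3 WT IRI values. Of all genes, 870 stood higher in this sense (7.18%) and 1425 lower (11.8%), and the median log2 difference of all genes was -0.05. The lower genes made up 62.1% of the non-overlapping genes. That split depended on scaling, with 1148 higher and 1095 lower after quantile normalization and 1167 and 1097 after trimmed-mean scaling. With WT IRI 49 left out, 2070 genes stood higher and 2631 lower, and with CKO IRI 29 left out 1486 and 2906. Leaving out WT IRI 24 gave 1319 higher and 2018 lower, and leaving out CKO IRI 15 gave 1483 higher and 1893 lower. For CKO IRI 7 the counts were 1161 higher and 1782 lower, and for WT IRI 13 they were 1058 and 1854. No overlap is easier to meet with 5 libraries than with 6, so list counts with a library left out read against these larger counts of all genes.

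Fatty acid oxidation held the largest share of genes that stood higher in CKO IRI among the lists with 10 or more tested members. Of its 49 tested genes, 23 were higher in every CKO IRI library than in any WT IRI library (46.9%, against 7.18% of all genes), 1 was lower, and the list's median log2 difference was 0.48 against -0.05 for all genes. None passed the adjusted test. With WT IRI 49 left out, 35 stood higher. Cyp4a10, a fatty acid omega-hydroxylase and classical PPAR-alpha target, measured 75.7, 81.2 and 159 FPKM in WT IRI 13, 24 and 49 and 302, 332 and 223 FPKM in CKO IRI 7, 15 and 29 (log2 difference 1.49 ± 0.32 SE). Ehhadh, the peroxisomal bifunctional enzyme of beta-oxidation, measured 52.5, 51.5 and 65.0 FPKM in WT IRI and 194, 158 and 95.8 FPKM in CKO IRI, against 264, 258 and 287 FPKM in WT sham. In both genes the nearest pair of libraries was WT IRI 49 and CKO IRI 29. Etfdh, which passes electrons from fatty acid oxidation to ubiquinone, was at 35.9, 32.4 and 42.8 FPKM in WT IRI and 76.0, 60.3 and 61.1 FPKM in CKO IRI. Acad11, an acyl-CoA dehydrogenase, was at 18.7, 16.3 and 21.9 FPKM in WT IRI and 36.9, 29.3 and 33.5 FPKM in CKO IRI. Unadjusted p was 0.00186 to 0.00323 in these 4 genes and adjusted p 0.4674 (limma). The mean log2 level over the list was 5.54, 5.39 and 5.84 in WT IRI 13, 24 and 49 and 6.31, 6.27 and 5.91 in CKO IRI 7, 15 and 29. The groups did not overlap at this level either, and WT IRI 49 and CKO IRI 29 were the nearest pair. The peroxisomal thiolase Acaa1a was the single member that stood lower, with a log2 difference of -0.37. It lies outside the rule for named genes and was chosen after its values were seen.

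Other proximal tubule metabolism stood on the same side. Among 47 genes of amino acid breakdown, 11 did not overlap and were higher (23.4%, against 7.18% of all genes) and 1 was lower, with a median log2 difference of 0.60. Without WT IRI 49 this count was 31, and without CKO IRI 29 it was 30. Aass, the first enzyme of lysine breakdown, measured 25.4, 22.3 and 36.4 FPKM in WT IRI and 67.7, 59.5 and 64.1 FPKM in CKO IRI, with sham values of 82.9 to 88.7 FPKM in 5 libraries and 46.7 FPKM in CKO sham 1. Gldc of the glycine cleavage system measured 40.4, 49.4 and 18.1 FPKM in WT IRI and 147, 97.5 and 105 FPKM in CKO IRI (log2 difference 1.76 ± 0.38). Kmo of the kynurenine pathway was at 12.9, 14.5 and 14.6 FPKM in WT IRI and 28.2, 26.7 and 20.1 FPKM in CKO IRI, without overlap. Gluconeogenesis and fructose metabolism had 2 of 13 genes without overlap, both higher (15.4%), with a median of 0.74. The count was 7 without WT IRI 49 and 9 without CKO IRI 29, and the median 0.49 without CKO IRI 7. Pck1, its rate-limiting enzyme, overlapped between the groups at 870.1, 395 and 413 FPKM in WT IRI and 1383, 1283 and 666 FPKM in CKO IRI. Among 43 proximal tubule transporters, 3 stood higher (6.98%, against 7.18% of all genes) and 1 lower (2.33%, against 11.8%), with a median of 0.72. That count rested on single libraries. It became 29 when WT IRI 49 was left out and 17 when CKO IRI 29 was. The count was 9 after leaving out CKO IRI 15 and 5 after leaving out WT IRI 24. The megalin gene Lrp2, an endocytic receptor, overlapped between the groups at 34.4, 39.4 and 77.7 FPKM in WT IRI 13, 24 and 49 and 83.3, 86.5 and 59.3 FPKM in CKO IRI 7, 15 and 29. Slc5a2, another proximal tubule marker, also overlapped but leaned the other way, at 124, 152 and 109 FPKM against 123, 90.4 and 94.2 FPKM. Of the 43 transporters, 40 had a positive difference and 3 a negative one. Summed FPKM of the 43 transporters lay between 2573 and 4751 in the WT IRI libraries and between 3845 and 5442 in the CKO IRI libraries. Without WT IRI 49 the transporter median was 1.03, and without WT IRI 13 it was 0.53. In these bulk samples, fewer cells of a type and less RNA per cell cannot be told apart.

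The respiratory chain was measured in 2 lists. Of 75 nuclear genes of oxidative phosphorylation, 7 were higher without overlap (9.33%, against 7.18% of all genes) and none lower, with a median of 0.15. Leaving out CKO IRI 15 gave a median of -0.03 and 8 genes lower, and leaving out WT IRI 24 gave a median of 0.01. The median was 0.23 if WT IRI 49 was left out and 0.24 if CKO IRI 29 was. The count higher was 24 without WT IRI 49 and 19 without CKO IRI 29. Ndufs1, a subunit of complex I, measured 26.9, 27.5 and 44.4 FPKM in WT IRI and 70.4, 72.8 and 58.0 FPKM in CKO IRI. All 13 mitochondrially encoded genes had a positive difference, and 1 was higher without overlap, 12 without WT IRI 24 and 5 without CKO IRI 29. Their median was 0.62, which was 0.15 without WT IRI 13, the library with the lowest mitochondrial share.

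NF-kB targets, cytokines and chemokines were the counterpart on the lower side. Of 37 tested genes, 16 were lower in every CKO IRI library than in any WT IRI library (43.2%, against 11.8% of all genes), none was higher, and the median log2 difference was -0.68. Nfkbie, which encodes the inhibitor I-kappa-B epsilon, measured 8.78, 8.03 and 5.74 FPKM in WT IRI 13, 24 and 49 and 3.23, 2.63 and 3.39 FPKM in CKO IRI 7, 15 and 29. Its sham values were 1.93 to 2.49 FPKM. Relb, an NF-kB subunit, was at 11.7, 15.8 and 7.65 FPKM in WT IRI and 4.53, 4.75 and 4.29 FPKM in CKO IRI (log2 difference -1.15 ± 0.26). In both genes the 3 CKO IRI libraries lay close together and WT IRI 49 was the nearest WT library. Icam1, an adhesion molecule for leukocytes, measured 28.7, 33.1 and 24.8 FPKM in WT IRI and 19.3, 16.1 and 17.5 FPKM in CKO IRI. Ccl20, the ligand of CCR6, measured 5.66, 5.41 and 5.77 FPKM in WT IRI and 2.29, 0.49 and 2.81 FPKM in CKO IRI. Adjusted p was 0.4674 for each of these 4 genes (limma). The macrophage list, measured beside them, had 21 of 24 genes with a negative difference and a median of -0.28, though none was without overlap. Without WT IRI 24 the median was -0.54 and 9 stood lower, and without WT IRI 13 the median was -0.11. The list had summed FPKM between 492.1 and 751.8 in the WT IRI libraries and between 480.5 and 535.6 in the CKO IRI libraries. C1qa of tissue macrophages lay between 19.6 and 62.3 FPKM in the former and between 25.6 and 43.9 FPKM in the latter. The macrophage markers Cd68 and Adgre1 overlapped too, with small positive log2 differences of 0.13 and 0.12 against -0.22 for C1qa. Cd68 measured 7.23, 11.3 and 12.5 FPKM in WT IRI 13, 24 and 49 and 9.82, 7.73 and 17.8 FPKM in CKO IRI 7, 15 and 29. The part of these cells in the NF-kB values was not tested.

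Promoter sequence is shown for members of this list because NF-kB binds a known DNA element. RefSeq promoters (GRCm38.p6, the 250 bases before the start site) were searched on both strands for the degenerate kB consensus. It occurred in 516 of the 9520 tested genes with a promoter in that table (5.42%). Among the list's members with a promoter there, it occurred in 7 of the 13 that stood lower without overlap and in 3 of the 13 others. The AP-1 element TGANTCA, where N is any base, occurred in 5.41% of all, in 4 of the former and in 2 of the latter, and among the former both elements were found in Nfkbie, Nfkb2 and Cxcl10. The PPAR direct repeat consensus was found in 59 of the 9520 genes (0.62%) and in none of the matched fatty acid oxidation genes (16 without overlap, 24 others). A match describes letters only, and several spellings of these elements were tried. The list was chosen to hold NF-kB targets, cytokines and chemokines. Its kB and AP-1 counts therefore cannot be read against the 5.42% and 5.41% of all genes. The difference between members without overlap and the others was not tested. The windows below run 5′ to 3′ on the gene's strand, with up to 40 bases on each side of the match, end no later than the start site and overlap no annotated exon; the match is in capitals. Nfkbia (I-kappa-B alpha), Csf1 (a macrophage growth factor) and Cxcl2 (a neutrophil chemokine) were chosen after their values were seen. The windows lie at chr17:45555554-45555643 (plus strand), chr12:55492648-55492716 (minus strand), chr3:107760574-107760663 (minus strand), chr5:90903762-90903851 (plus strand) and chr1:83116646-83116735 (plus strand).
Nfkbie: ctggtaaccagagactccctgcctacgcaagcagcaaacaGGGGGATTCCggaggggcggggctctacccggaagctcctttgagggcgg
Nfkbia: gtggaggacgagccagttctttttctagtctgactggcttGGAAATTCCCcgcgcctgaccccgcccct
Csf1: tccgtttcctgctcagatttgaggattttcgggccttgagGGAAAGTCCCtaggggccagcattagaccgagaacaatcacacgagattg
Cxcl2: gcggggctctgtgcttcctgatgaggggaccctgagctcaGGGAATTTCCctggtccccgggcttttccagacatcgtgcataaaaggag
Ccl20: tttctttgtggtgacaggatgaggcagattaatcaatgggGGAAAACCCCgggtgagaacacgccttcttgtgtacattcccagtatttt
The matches begin 106, 29, 154, 97 and 80 bases before the start site, in that order. Nfkbia measured 107, 80.4 and 52.0 FPKM in WT IRI and 47.6, 48.5 and 43.8 FPKM in CKO IRI. Csf1 was at 23.9, 16.0 and 14.9 FPKM against 8.34, 7.19 and 12.98 FPKM, and Cxcl2 at 13.2, 8.70 and 4.69 FPKM against 4.46, 0.77 and 3.25 FPKM. All 3 were without overlap, with WT IRI 49 the lowest WT library each time.

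**Figure D2:**
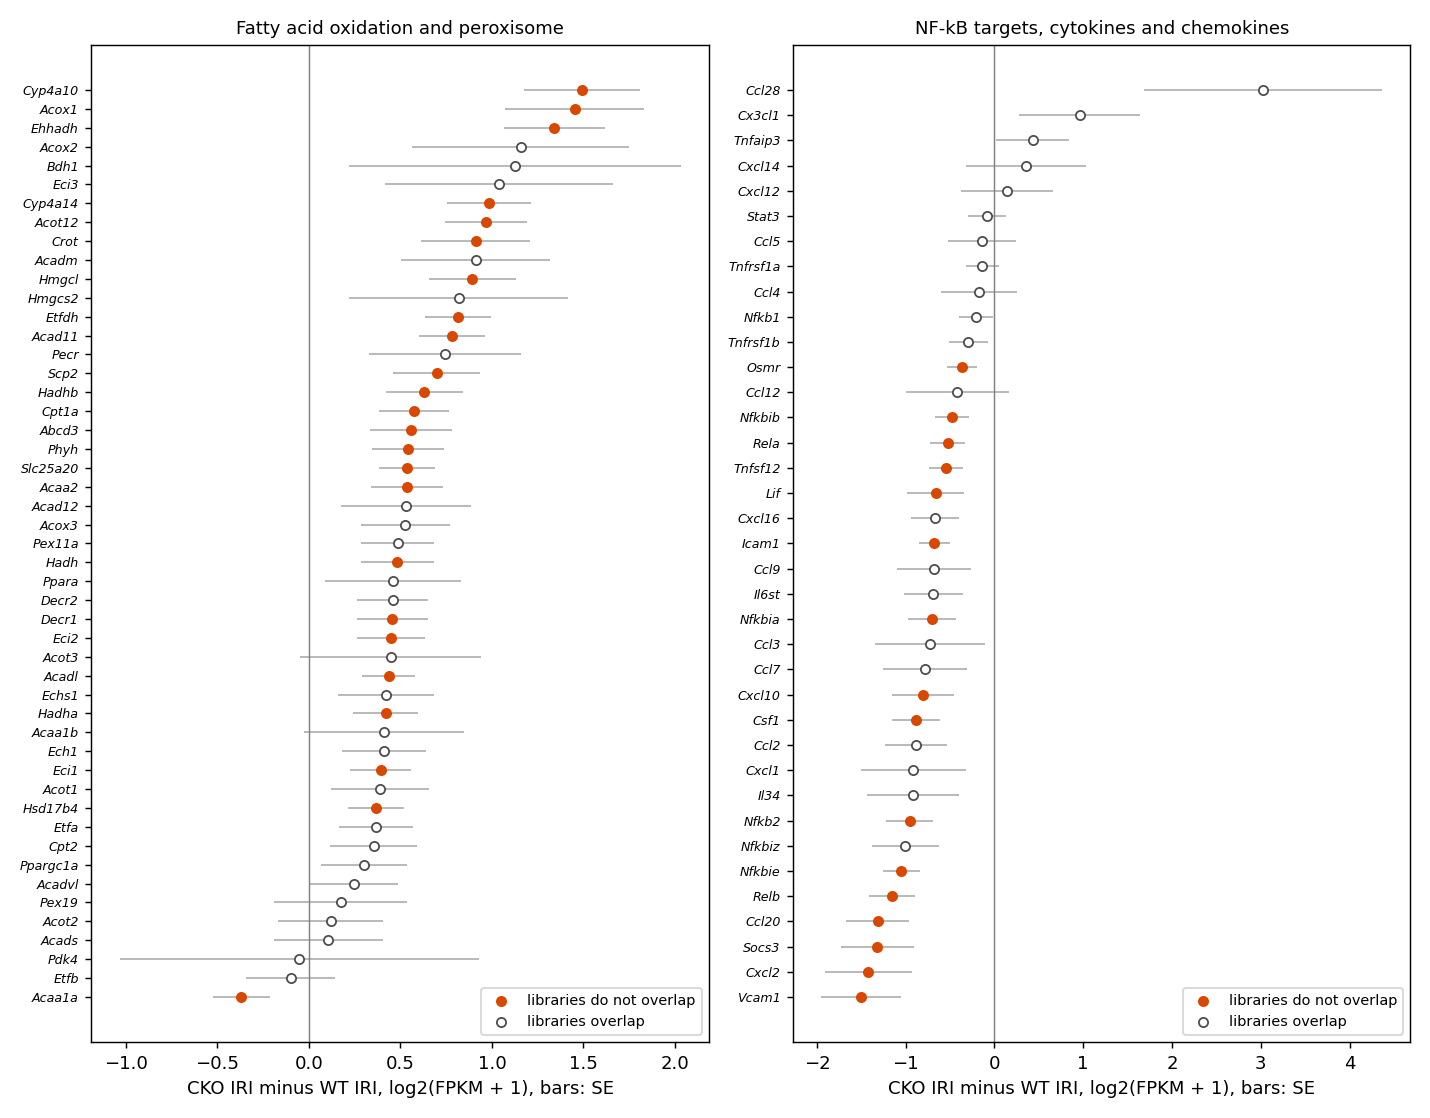
Log2 difference between CKO IRI and WT IRI (points) with its SE (bars) for each tested member of the fatty acid oxidation list and of the NF-kB list; filled points mark genes whose 6 libraries do not overlap between groups. In the first list 23 of 49 genes stand higher without overlap and 1 lower, in the second 16 of 37 stand lower and none higher.

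Stress and interferon lists were measured next. Among 31 interferon response genes, 10 were lower without overlap (32.3%, against 11.8% of all genes) and none higher, with a median of -0.23. The median was -0.37 without WT IRI 13 and -0.36 without CKO IRI 15. With only genes reaching 5 FPKM, 5 were lower, while the count of all genes lower fell from 1425 to 1045. How many list members that filter kept is not given here, so the 5 cannot be read as a share. Irf1, a transcription factor of that response, measured 17.2, 17.3 and 17.2 FPKM in WT IRI and 10.5, 9.31 and 5.38 FPKM in CKO IRI, so that the WT IRI libraries were nearly identical and every CKO IRI library was below them. In sham Irf1 stood the other way, at 7.88, 7.50 and 8.98 FPKM in WT and 13.2, 12.5 and 12.5 FPKM in CKO. Summed FPKM of the interferon list lay between 254.8 and 274.1 in WT sham and between 312.5 and 463.9 in CKO sham. Of 27 AP-1 and immediate early genes, 5 were lower (18.5%) and none higher (median -0.68). The count was 16 when WT IRI 49 was left out, 9 for CKO IRI 29 and 8 for CKO IRI 7. Leaving out WT IRI 13 gave a median of -0.40, and leaving out CKO IRI 15 gave -0.45. Among the 5 was Jund at 284, 206 and 138 FPKM in WT IRI and 92.1, 104 and 114 FPKM in CKO IRI. Of 34 genes of apoptosis, necroptosis and pyroptosis, 8 were lower (23.5%) and 1 higher (median -0.37), with 14 lower without CKO IRI 29 and 5 higher without CKO IRI 15. These included both the anti-apoptotic Bcl2l1, at 87.0, 90.3 and 64.3 FPKM against 41.3, 50.5 and 37.9 FPKM, and the pore-forming Gsdmd, at 7.39, 4.85 and 6.59 FPKM against 3.00, 3.50 and 3.18 FPKM. Of 25 p53 and DNA damage genes, 4 were lower (16%, near the 11.8% of all genes) and 1 higher, with a median of -0.44. Leaving out WT IRI 49 gave 13 lower and a median of -0.68, and without CKO IRI 29, 9 were lower. The median was -0.21 without WT IRI 13 and -0.29 without CKO IRI 15. Bbc3 (PUMA), a p53 target, was at 7.01, 7.28 and 3.79 FPKM in WT IRI and 2.88, 1.69 and 1.93 FPKM in CKO IRI. Heat shock and unfolded protein lists held genes on both sides or on the higher side. Of 23 heat shock genes, 3 were higher (13%) and none lower, with a median of 0.01, and up to 4 were lower as single libraries were left out. Of 32 genes of the unfolded protein and integrated stress responses, 4 were higher (12.5%) and 5 lower (15.6%), with a median of -0.24. The count lower was 12 without WT IRI 49 and 8 if either WT IRI 24 or CKO IRI 29 was left out. Leaving out WT IRI 13 moved the median to -0.16, and leaving out CKO IRI 15 moved it to -0.14.

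Tubular injury genes had lower medians but overlapped in their best known members. Of 31 tested genes, 8 were lower without overlap (25.8%) and none higher, with a median of -0.72 that ranged from -1.07 to -0.31 as single libraries were left out, the weakest without CKO IRI 15 and the next, -0.46, without WT IRI 13. The count was 20 without WT IRI 49 and 17 without CKO IRI 29. Havcr1 measured 370.1, 348 and 276 FPKM in WT IRI and 228, 90.6 and 408 FPKM in CKO IRI, so the highest of the 6 was CKO IRI 29. Lcn2 was at 361, 465 and 147 FPKM in WT IRI and 181, 107 and 429 FPKM in CKO IRI. Both were low in WT sham, at 0.67 to 3.36 FPKM for Havcr1 and 4.05 to 6.45 FPKM for Lcn2. Sox4 and Vcam1, genes of injured tubules, did separate. Sox4 was at 58.9, 58.1 and 21.7 FPKM against 16.6, 12.8 and 21.1 FPKM, and Vcam1 at 31.1, 53.4 and 22.7 FPKM against 17.2, 5.66 and 14.1 FPKM. Of 10 keratins of simple and stressed epithelium, 3 were lower without overlap (30%, against 11.8% of all genes) and none higher. The count was 9 without WT IRI 49, when 2631 of all genes were lower. Krt18 was among the 3, at 271, 225 and 109 FPKM against 87.3, 55.4 and 103 FPKM. Of 46 cell cycle genes, 14 were lower (30.4%, against 11.8% of all genes) and none higher, with a median of -0.43. Without CKO IRI 29, 29 were lower. Birc5 (survivin), needed for chromosome segregation, was at 104, 63.0 and 54.8 FPKM in WT IRI and 40.3, 24.5 and 42.2 FPKM in CKO IRI. The cell cycle median was -0.18 without CKO IRI 15. Of 55 ribosomal protein genes, 15 were lower (27.3%) and none higher (median -0.30), with 10 lower after quantile normalization and 39 without WT IRI 49 or without CKO IRI 29.

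**Figure D3:**
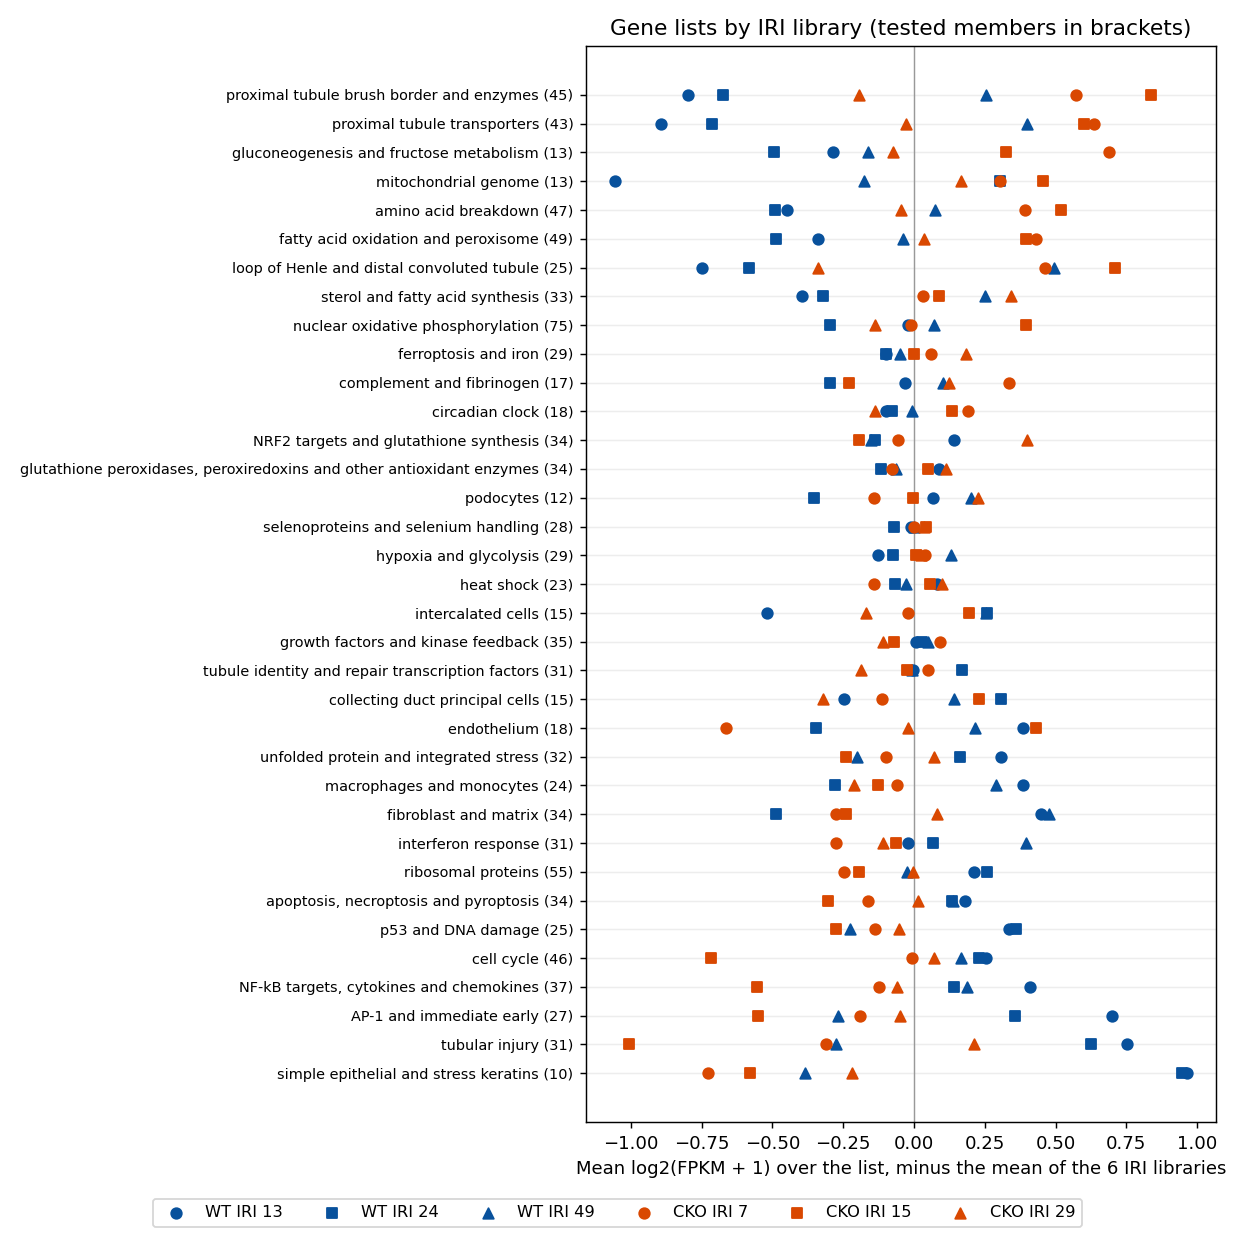
Mean log2(FPKM + 1) of each gene list with at least 10 tested members (sex-linked and sex-biased genes left out) in each IRI library, minus the mean of the 6 libraries (x axis); blue marks are WT IRI, orange marks CKO IRI, and brackets give the number of tested genes. Proximal tubule lists lie at one end and injury and keratin lists at the other, and WT IRI 49 and CKO IRI 29 often fall between the remaining libraries of both groups.

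Lists close to the function of Gpx3 had medians near 0, and their shares of genes lower without overlap were under the 11.8% of all genes. Their shares higher were above the 7.18% of all genes, except that the NRF2 list was near it. The share of all genes depended on scaling, with 1148 genes higher after quantile normalization and 1167 after trimmed-mean scaling, against 870 without. The list shares after those scalings are not given here. The list of glutathione peroxidases, peroxiredoxins and other antioxidant enzymes had 5 of 34 genes higher (14.7%) and 1 lower (2.94%), with a median of 0.05. The count higher was 9 without WT IRI 49 and 8 without CKO IRI 7, the count lower was up to 5 (without CKO IRI 29), and the median ran from -0.04 without WT IRI 49 to 0.18 without CKO IRI 7. Catalase (Cat), the peroxisomal hydrogen peroxide enzyme, was at 134, 163 and 226 FPKM in WT IRI and 279, 289.9 and 270.4 FPKM in CKO IRI. Gpx7, a peroxidase of the endoplasmic reticulum, was the member that stood lower, at 11.6, 7.04 and 8.76 FPKM against 4.56, 3.62 and 5.77 FPKM. Selenoproteins and selenium handling had 4 of 28 genes higher (14.3%) and 2 lower (7.14%), with a median of 0.00. With WT IRI 49 left out these counts were 9 and 5, and without CKO IRI 29 they were 8 and 6. NRF2 targets had 3 of 34 higher (8.82%) and 1 lower (2.94%), with a median of 0.16 that was 0.00 without CKO IRI 29, when 6 were higher and 8 lower. The count higher was 8 without CKO IRI 15 and 7 without WT IRI 49. Among the higher genes was Nqo1 at 35.2, 28.1 and 44.5 FPKM in WT IRI and 51.0, 48.7 and 93.5 FPKM in CKO IRI. Of 29 genes of ferroptosis and iron, 6 were higher (20.7%) and 1 lower (3.45%), and the median was 0.05. Without WT IRI 49, 10 were higher and 4 lower, and without CKO IRI 29, 6 were lower. Trf (transferrin) was at 9.79, 10.1 and 10.02 FPKM in WT IRI and 16.3, 14.1 and 20.3 FPKM in CKO IRI.

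Other cell types of the cortex were measured beside these lists. Of 25 loop of Henle and distal convoluted tubule genes, 23 had a positive difference, as most proximal tubule genes did, and the median was 0.44. In that list 2 were higher without overlap (8%, against 7.18% of all genes) and 1 lower (4%). Without WT IRI 49 the count higher was 12, and without CKO IRI 29 it was 11. Principal and intercalated cell lists of 15 genes each had medians of -0.14 and -0.05, with 1 lower in the former and 1 higher in the latter (6.67% each). No gene was without overlap among 18 endothelial and 12 podocyte genes, whose medians were -0.17 and 0.09. The endothelial median ran from -0.43 without CKO IRI 15 to 0.15 without CKO IRI 7. Of 34 fibroblast and matrix genes, 3 were lower (8.82%, under the 11.8% of all genes) and none higher, and 10 had a positive difference. Vim, a mesenchymal filament gene, was 1 of the 3, at 270.4, 168 and 85.1 FPKM against 53.9, 48.97 and 75.4 FPKM. Summed FPKM of that list lay between 936.4 and 1864 in the WT IRI libraries and between 864.9 and 1198 in the CKO IRI libraries, and its median was -0.22. Leaving out WT IRI 49 brought that median near 0 and leaving out CKO IRI 7 to -0.11, while leaving out CKO IRI 29 gave -0.35 and leaving out WT IRI 24 gave -0.57. The count lower was 15 without WT IRI 24 and 7 without CKO IRI 29. No marker of T, NK or B cells passed the filter, and Cd3e lay between 0 and 0.3 FPKM. Among 13 sex-linked and sex-biased kidney genes none was without overlap, but 11 had a positive difference and the median of 1.28 was the highest of the lists tested. Leaving out WT IRI 49 gave a median of 2.20 and 7 genes higher, and leaving out CKO IRI 29 gave 2.04 and 4 genes higher. The median was 0.76 when WT IRI 24 was left out. In these libraries the sum of their FPKM was 519.3, 317.8 and 2550 in WT IRI 13, 24 and 49 and 2411, 4998 and 1057 in CKO IRI 7, 15 and 29. Most of each sum was the single gene Kap, at 483, 286 and 2274 FPKM and at 2114, 4360 and 972 FPKM in the same order. The sums in the sham libraries lay between 4897 and 8443. The part of the differences between IRI libraries in these genes in the other gene lists was not tested.

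The 12 genes of smallest p in each direction, with at least 5 FPKM on average in 1 group, included several whose values also swung between sham libraries. Zfp410, a zinc finger transcription factor, measured 7.54, 9.53 and 8.52 FPKM in WT IRI and 1.58, 1.66 and 1.30 FPKM in CKO IRI, with an adjusted p of 0.05894 (limma). Its WT sham libraries were at 6.92, 1.23 and 1.94 FPKM, which covers most of the same range. Kbtbd4, an adaptor of a ubiquitin ligase, was at 2.11, 2.07 and 2.55 FPKM in WT IRI and 8.63, 11.3 and 9.71 FPKM in CKO IRI, and at 2.60, 9.44 and 2.73 FPKM in CKO sham. Golga2, a Golgi matrix protein, was at 3.24, 1.28 and 1.11 FPKM against 14.3, 12.7 and 12.6 FPKM, and at 13.4, 1.96 and 2.34 FPKM in WT sham. Its signal came from ENSMUST00000100194 in CKO IRI 7 and 15, at 12.9 and 11.3 FPKM, and from ENSMUST00000113377 in CKO IRI 29, at 11.6 FPKM. Ncoa4, the receptor that delivers ferritin to lysosomes, was at 3.69, 8.35 and 6.02 FPKM in WT IRI and 63.4, 32.2 and 37.8 FPKM in CKO IRI, with WT sham at 27.6, 8.99 and 41.3 FPKM. Lrp5, a Wnt co-receptor, was at 8.59, 13.3 and 13.6 FPKM in WT IRI and at 1.47, 0 and 1.35 FPKM in CKO IRI, with WT sham at 14.1, 1.10 and 14.7 FPKM. The log2 range within a sham group was larger than the CKO IRI difference in 5 of the 12 higher and 6 of the 12 lower genes, against 66.7% of all genes and 35% of the non-overlapping genes.

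In 5 other ranked genes the log2 range within each sham group was smaller than the difference after IRI. Mapk15, an atypical MAP kinase, measured 23.97, 21.2 and 15.8 FPKM in WT IRI and 8.95, 7.98 and 7.54 FPKM in CKO IRI. Marcksl1, an actin-binding protein, was at 29.5, 29.7 and 22.3 FPKM against 10.8, 9.92 and 14.3 FPKM. Basp1, a membrane-bound signalling protein, was at 11.1, 6.36 and 7.96 FPKM against 3.37, 3.50 and 3.43 FPKM, the CKO IRI values lying very close together. Pxmp4, a peroxisomal membrane protein, was higher at 87.8, 88.7 and 70.6 FPKM in CKO IRI than at 39.2, 42.9 and 51.2 FPKM in WT IRI, and Tfdp2, a partner of E2F, at 6.77, 11.9 and 8.94 FPKM against 3.11, 2.97 and 3.16 FPKM. Adjusted p was 0.3875 to 0.4674 in these 5 genes (limma). The remaining ranked genes are given mainly by their differences. Those that stood higher, apart from Aass and Ehhadh above, were Kctd3, Fmo2, Aplp2, Akr1e1 and Ube3a, from a log2 difference of 0.88 in Akr1e1 to 2.82 in Fmo2. Those that stood lower, apart from Nfkbie above, were Paqr7, Neurl3, Tmed1, Lamc1 and Ramp2, from -0.92 in Neurl3 to -1.13 in Paqr7 and Tmed1. Except for Ube3a and Neurl3, each of these 10 genes had a range within a sham group that was larger than its difference. In Lamc1 and Paqr7 the lower sum came from ENSMUST00000161744 and ENSMUST00000081525. Their other transcripts, ENSMUST00000027752 and ENSMUST00000095074, stood higher in CKO IRI without overlap. The Lamc1 one measured 3.21, 2.45 and 6.44 FPKM in WT IRI and 9.52, 7.99 and 11.8 FPKM in CKO IRI. In Ramp2, ENSMUST00000129680 overlapped between the groups, as did ENSMUST00000200758 in Ube3a. The largest part of Tfdp2 in each CKO IRI library was ENSMUST00000034982, at 5.66, 6.23 and 4.17 FPKM. It was at 0.003, 0.12 and 0.20 FPKM in WT IRI. In CKO IRI 15 a further 5.0 FPKM came from ENSMUST00000185644, and in CKO IRI 29 a further 3.31 FPKM from ENSMUST00000179065. ENSMUST00000165768 and ENSMUST00000188750 of Tfdp2 overlapped between the groups.

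**Figure D4:**
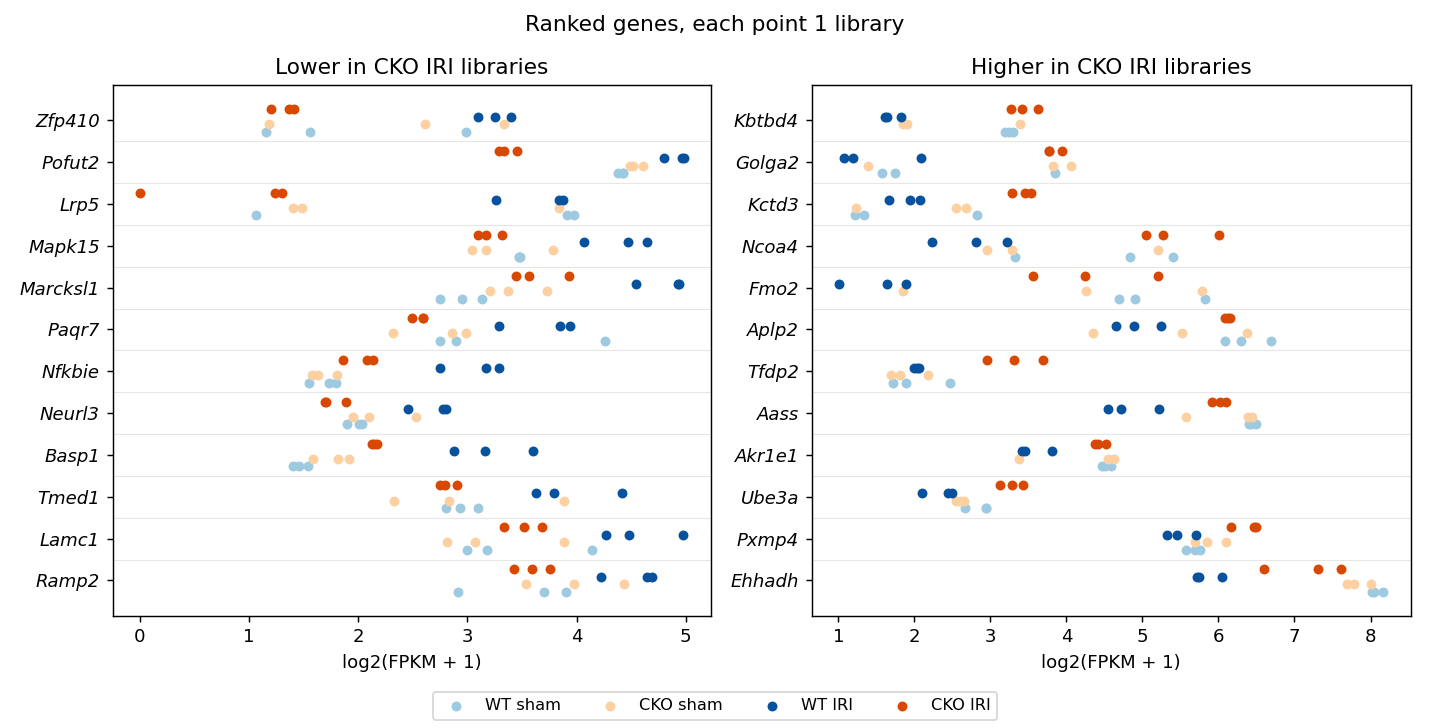
log2(FPKM + 1) of the 12 genes of smallest p in each direction in all 12 libraries, 1 point per library, coloured by group. Dark blue (WT IRI) and dark orange (CKO IRI) points do not overlap by the rule of selection, while pale sham points span both for genes such as Lrp5, Golga2 and Ncoa4.

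In Pofut2 and Tmem67 the difference between the genotypes was itself different after IRI and in sham. Pofut2 (chr10:77259218-77269575, plus strand), which adds fucose to thrombospondin repeats, measured 26.9, 30.7 and 30.2 FPKM in WT IRI 13, 24 and 49 and 8.75, 9.09 and 9.96 FPKM in CKO IRI 7, 15 and 29. Its 6 sham libraries lay between 19.8 and 23.3 FPKM, so WT IRI lay above sham and CKO IRI below it. The log2 difference after IRI was -1.56 ± 0.15 (adjusted p 0.05894, limma), and in sham it was 0.13. Tmem67 (chr4:12039355-12090020, minus strand), which encodes meckelin of the ciliary transition zone, was listed at 0, 0 and 0.09 FPKM in WT IRI and measured 2.40, 2.23 and 2.15 FPKM in CKO IRI. In sham it was at 2.49 to 2.66 FPKM in all 6 libraries. It lies outside the rule for ranked genes, being under 5 FPKM, and was chosen after its values were seen. It passed the filter of the IRI comparison only through the CKO IRI libraries, so its place among the genes of lowest p there supports nothing. The genotype by injury interaction in limma over 12 libraries, with array weights per group, called 2 of 12469 genes (0.016%), which were Pofut2 at -1.69 (adjusted p 0.001685) and Tmem67 at 1.66 (adjusted p 0.004669). The next adjusted p was 0.1719. For Tmem67 the size of the interaction follows from the pseudocount, because the WT IRI values are at or near 0, and it was 2.38 with a pseudocount of 0.5. Tmem67 no longer passed without WT IRI 24 (adjusted p 0.08174), and without WT IRI 49 the interaction called 25 genes higher and 14 lower. For Tmem67 the table holds 1 transcript, so a value of 0 can be a failed estimate, and no fold is given.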

How the data were processed

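RNA-seq of mouse renal cortex was analysed in the 6 IRI libraries, with 6 sham libraries for the interaction. Per the labels' protocols, total RNA was made into strand-marked libraries primed at random. The submitters' processing notes name cutadapt, HISAT2 2.1.0 and StringTie, and list GRCh38, although the identifiers are mouse. The authors deposited 1 table of 25790 transcripts, read here as FPKM; its header names no unit, and the read depth is unknown. Of these, 25740 matched GENCODE M21 and were summed to 13465 genes. Coordinates are GRCm38. Genes sharing reads with near-identical or overlapping copies are uncertain.

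Values were tested as log2(FPKM + 1) with limma 3.58.1 (R 4.3.3), trend on, after keeping genes at 1 FPKM in 3 of the 6 libraries. The pseudocount of 1 understates the change of low genes. The code was tested on simulated data. Named genes were Gpx3, the 12 non-overlapping genes of smallest p per direction with a group mean of 5 FPKM or more, up to 4 members of smallest p in each list, and defining markers; a gene outside this is said to be so. The members and the 42 gene lists were chosen with earlier results of these data known. Alternatives were pseudocounts of 0.1 and 0.5, filters, 2 scalings, shared spread, array weights and leaving out each library.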

Additional observations from a re-analysis of the deposited data

Results flagged for a closer look

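Pofut2 and Tmem67 stood out because their difference between genotypes was not the same after IRI as in sham (limma interaction over 12 libraries). For Pofut2 the CKO minus WT difference was lower after IRI than in sham by a log2 value of -1.69 (-1.688), with every CKO IRI library under every WT IRI library. For Tmem67 the corresponding value was 1.66, and all 3 CKO IRI libraries were above all 3 WT IRI libraries.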

How the results depend on the processing

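The count of genes past an adjusted p of 0.05 between CKO IRI and WT IRI (0 higher, 0 lower) stayed at 0 with either pseudocount, either filter and both scalings. A fit of all 12 libraries with shared spread called 3 higher and 2 lower (Crybg3, Pde4b and Tmem67; Pofut2 and Ankle1), and array weights called 4 higher and 3 lower. Leaving out single libraries gave 0 to 1 higher and 0 lower; the 1 call came without WT IRI 49. The Gpx3 difference ranged from -0.001219 without WT IRI 49, where its sign turned, to 0.8635 without WT IRI 24. For the interaction, a filter of 5 FPKM left 0 genes higher, and leaving out single libraries gave 0 to 25 higher and 1 to 14 lower, the most without WT IRI 49. The cause was not tested. No paired analysis was possible because the labels of the IRI groups share no replicate number. With an unknown depth, no interval or limit of detection can be given, and 3 libraries per group limit the precision.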
